A study of Mus musculus with 20 samples.

Results

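The p53 pathway was followed here through 10 of its target genes (Cdkn1a, Ccng1, Mdm2, Gadd45a, Gadd45b, Sesn1, Btg2, Phlda3, Trp53inp1 and Zmat3) in 2 tissues, fat and liver, of mice bred as deficient in protein kinase C epsilon. They are 10 of the 48440 genes in the count table and were found by their symbols. The members were chosen by measured values: they are growth arrest and other target genes picked because the level of Cdkn1a lay higher in the fat of the deficient mice than in that of wild-type (WT) mice, and that of Ccng1 in both tissues. Levels of deficient against WT mice are therefore given as a description with no test. The contrast between tissues and the variation within groups are other contrasts and were tested, but they share libraries with the choice. The KO tissue values of Cdkn1a and Ccng1 are given without a p for that reason. The WT levels of both genes entered the choice too, so their WT tissue p-values are not independent of it. RNA was sequenced from gonadal fat pad and liver of C57BL/6 mice that had eaten a high fat diet over 1 week and had then gone without food over 6 h. KO stands below for the genotype labelled AdEpsKO. That label is not expanded in the sources read, so the cells in which the kinase gene was deleted are not known. Each tissue had 5 KO and 5 WT libraries, 20 in all, and the series text gives 5 mice per group. Since no label ties a library to a mouse, p-values measure the spread between these libraries.

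The transcription factor p53 is a sensor of DNA damage and other stress. When it is stabilised it binds a pair of decamer elements near its target genes and raises their transcription, and the products stop the cell cycle, repair DNA, adjust metabolism or start apoptosis. Several targets feed back on p53 itself, and many of them also respond to other signals such as nutrient state, glucocorticoids, growth factors and cell differentiation. In adipose tissue the pathway is known for its part in senescence and inflammation under overfeeding, and in liver for its part in the fasting response and regeneration.

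The members fall into 4 roles. Cdkn1a (ENSMUSG00000023067, chr17:29090976-29100727), which encodes the cyclin-dependent kinase inhibitor p21, Gadd45a (ENSMUSG00000036390, chr6:67035096-67037457), Gadd45b (ENSMUSG00000015312, chr10:80930073-80932204) and Btg2 (ENSMUSG00000020423, chr1:134075170-134079120), an antiproliferative adaptor of mRNA deadenylation, restrain growth. Mdm2 (ENSMUSG00000020184, chr10:117688875-117710758), the ubiquitin ligase that degrades p53, and Ccng1 (ENSMUSG00000020326, chr11:40748552-40755311), an atypical cyclin that recruits a phosphatase to Mdm2, form the feedback arm. Sesn1 (ENSMUSG00000038332, chr10:41809935-41908424), a sestrin that restrains mTORC1, Trp53inp1 (ENSMUSG00000028211, chr4:11156431-11174379), which acts in autophagy and cell death, and Phlda3 (ENSMUSG00000041801, chr1:135766119-135769136), a repressor of Akt, act on metabolism and survival. Zmat3 (ENSMUSG00000027663, chr3:32334792-32366014) is an RNA-binding zinc finger protein. Coordinates are on GRCm38. Gadd45a overlaps the noncoding gene E230016M11Rik on the opposite strand, which held 920 counts over the 20 libraries against 3991 for Gadd45a, and since no source read here states the strand setting of the counting, reads of this pair may have been shared.

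The promoters of the members were read from RefSeq to show which of them carry the letters that p53 recognises close to their start. Windows ran from 250 bases before to 50 bases after a RefSeq start site on GRCm38.p6, and 8 of the members had at least 1 window, 10 windows in all (Cdkn1a and Sesn1 have 2 start sites each). The p53 decamer motif, searched on both strands, lay in 5 of the 10 member windows, while 8.36% of the 32851 promoter windows of the same length held it. These are the 250 bases before the start site of those 5 windows, 5′ to 3′ on the strand of the gene, with the decamer in capitals.
Cdkn1a, chr17:29090729-29090978, plus strand: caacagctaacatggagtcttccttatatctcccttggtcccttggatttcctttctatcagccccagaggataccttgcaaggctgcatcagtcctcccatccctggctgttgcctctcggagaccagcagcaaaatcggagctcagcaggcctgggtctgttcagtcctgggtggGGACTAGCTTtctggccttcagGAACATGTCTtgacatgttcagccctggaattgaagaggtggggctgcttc
Ccng1, chr11:40755287-40755536, minus strand: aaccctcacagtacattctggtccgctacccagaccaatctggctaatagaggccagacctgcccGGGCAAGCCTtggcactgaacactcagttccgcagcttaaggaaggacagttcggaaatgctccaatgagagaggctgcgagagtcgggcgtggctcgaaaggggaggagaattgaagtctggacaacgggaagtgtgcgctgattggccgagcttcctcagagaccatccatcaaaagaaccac
Mdm2, chr10:117710759-117711008, minus strand: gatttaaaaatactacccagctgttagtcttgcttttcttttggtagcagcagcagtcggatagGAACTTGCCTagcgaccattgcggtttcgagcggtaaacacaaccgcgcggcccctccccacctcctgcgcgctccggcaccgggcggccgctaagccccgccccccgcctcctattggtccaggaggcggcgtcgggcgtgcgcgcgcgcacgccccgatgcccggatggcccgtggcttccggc
Gadd45a, chr6:67037408-67037657, minus strand: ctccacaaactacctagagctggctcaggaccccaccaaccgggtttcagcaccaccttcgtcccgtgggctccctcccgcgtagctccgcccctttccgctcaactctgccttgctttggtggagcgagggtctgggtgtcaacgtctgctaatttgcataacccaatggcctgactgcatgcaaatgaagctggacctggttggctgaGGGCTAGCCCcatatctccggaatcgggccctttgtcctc
Sesn1, chr10:41887189-41887438, plus strand: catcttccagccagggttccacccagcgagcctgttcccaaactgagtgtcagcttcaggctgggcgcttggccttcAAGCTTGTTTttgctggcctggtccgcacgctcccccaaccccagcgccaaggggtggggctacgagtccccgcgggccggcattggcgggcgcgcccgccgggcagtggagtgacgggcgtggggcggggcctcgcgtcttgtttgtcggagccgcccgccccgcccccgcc
Counted from the start site of the window, the decamers began at -73 and -51 in the first window of Cdkn1a and at -185 in Ccng1. They began at -186 in Mdm2, -40 in Gadd45a and -173 in the second window of Sesn1. The first Cdkn1a window thus held 2 decamers and each of the others shown 1. The second start site of Cdkn1a, with its window at chr17:29093519-29093818, lies downstream of the first. The windows of Btg2, Phlda3 and Gadd45b and the other windows of Cdkn1a and Sesn1 did not hold these letters, which says nothing of sites outside the window. Other motifs were searched in the same windows on both strands. CCAAT was in 7 of the 10 windows against 37.4% of all promoters, and the cyclic AMP response core TGACG in 3 against 20.8%. Gadd45b alone held the E-box CACGTG, found in 7.15% of all promoters, and TATAAA, found in 13.6%. Neither the AP-1 letters TGANTCA (7.81% of all promoters) nor the palindromic glucocorticoid element (0.00913%) was in a member window. A match is a string of letters and was not tested as a binding site.

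Libraries summed to between 12880933 and 17276907 expected counts in fat and between 13836370 and 20784145 in liver. Adipocyte markers summed to at least 18510 CPM (counts scaled to library size) in every fat library and to at most 52.3 in liver, and hepatocyte markers to at least 104200 CPM in every liver library. In fat, hepatocyte markers were at 1467 to 2189 CPM in KO and at 2397 to 4985 CPM in WT, summed over 7 of 7 markers. Most of that sum was Cyp2e1, at 1430 to 1983 CPM in KO fat and 2312 to 4430 CPM in WT fat, while the other 6 overlapped, at 37.5 to 537 CPM in KO and 15 to 555 CPM in WT. KO fat 2 stood apart with 1926 CPM of bladder-type epithelial markers against 51.9 to 178 in the other fat libraries. Prkce, the targeted gene, was at 16.1 to 25.7 CPM in KO fat and at 25.8 to 48.3 CPM in WT fat, without overlap. In liver the groups overlapped, at 11.98 to 19.98 CPM in KO and 14.7 to 27.4 CPM in WT. In bulk tissue, fewer cells of a type and less RNA per cell cannot be told apart. Member levels below are CPM on 1 scale over all 20 libraries, and each member passed the filter on low counts in every comparison.

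**Figure D1:**
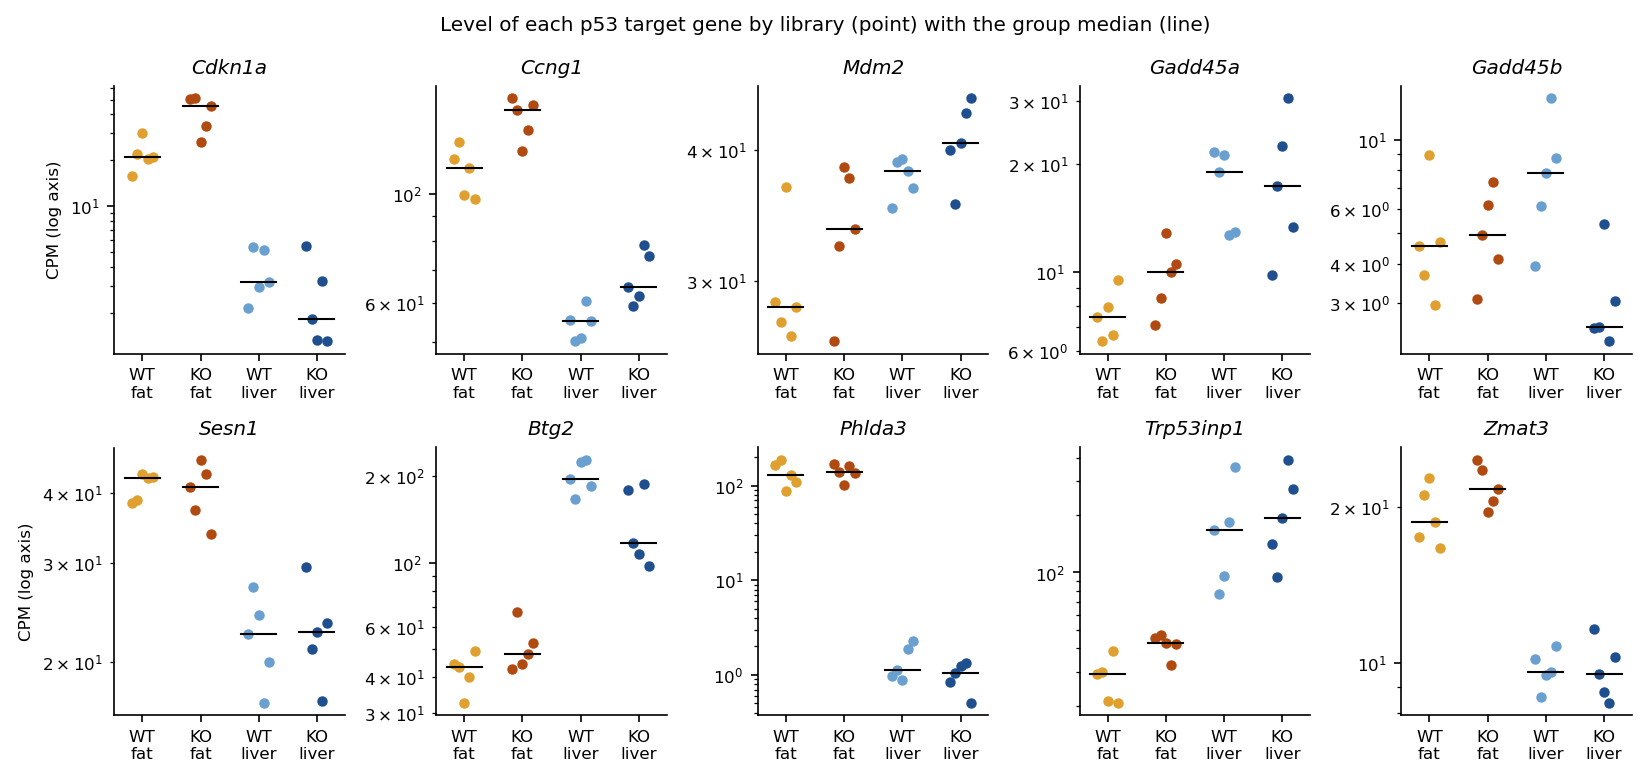
Level of each of the 10 p53 target genes in CPM (log axis, own range per gene), with 1 point per library and the group median as a line, for WT fat, KO fat, WT liver and KO liver. Phlda3 was near 1 CPM in liver and above 87 CPM in fat, Btg2 and Trp53inp1 were higher in liver, and in fat 4 of the 5 KO libraries lay above the highest WT library for Cdkn1a, Ccng1 and Trp53inp1.

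The order of the members by abundance differed between fat and liver. Per kilobase of the longest transcript, Phlda3 was the most abundant member of WT fat, at 95.4 ± 29.0 CPM per kb, and Ccng1 came next, at 31.6 ± 3.58 CPM per kb (SD, n = 5 each). Btg2 followed at 15.3 ± 2.25 CPM per kb. Sesn1 (10.8 ± 0.616), Cdkn1a (10.6 ± 2.53) and Mdm2 (9.40 ± 1.32 CPM per kb) could not be ordered, since the range of Cdkn1a, 7.62 to 14.6, spanned the means of both others. Gadd45a, Trp53inp1, Gadd45b and Zmat3 stood lower, between 6.21 and 2.48 CPM per kb, and the ranges of neighbours among them overlapped. In WT liver the order began with Btg2, at 72.9 ± 9.57 CPM per kb, and Trp53inp1, at 32.4 ± 20.3 CPM per kb, whose range of 14.3 to 65.4 overlapped that of Btg2 (60.9 to 83.3) and included the means of Ccng1 (15.5 ± 1.18) and Gadd45a (14.3 ± 3.63). At the foot of the WT liver order stood Cdkn1a (1.81 ± 0.689), Zmat3 (1.25 ± 0.105) and Phlda3 (0.999 ± 0.440 CPM per kb), whose ranges overlapped. The KO groups had the same first and second members, Phlda3 (99.1 ± 18.1) and Ccng1 (40.6 ± 4.00) in fat and Btg2 (50.3 ± 15.5) and Trp53inp1 (40.2 ± 21.5 CPM per kb) in liver.

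The tissue contrast was tested with edgeR's quasi-likelihood test over all genes, once in the WT and once in the KO libraries, with Benjamini-Hochberg adjustment. In WT mice 9 of the 10 members differed, 5 higher in fat and 4 higher in liver. Of all 14739 genes tested, 74.3% differed (38.4% higher and 35.9% lower in fat), so the share of members is not far from that of all genes. In KO mice 6 of the 10 members lay higher in fat and 4 higher in liver. Calls are not counted for these KO libraries, since the KO levels of Cdkn1a and Ccng1 entered the choice of the set. The WT levels of both genes entered it too, so the WT count of calls is not independent of the choice. Of all 14603 genes tested in KO mice, 74.4% differed (38.8% higher and 35.6% lower in fat). This contrast depends on how the tissues are scaled to each other. With upper quartile scaling the median log2 ratio of all genes moved by 0.29 in WT and 0.27 in KO, and with library totals alone by 0.93 and 0.895. The share of calls that were higher in fat was 51.7% in WT with TMM, 65.1% with upper quartiles and 82.5% with totals, and 52.1%, 64.4% and 82.6% in KO. The 10 most abundant genes took 9.39% to 17.1% of the counts of a fat library and 18.4% to 22.5% of a liver library.

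Phlda3, the Akt repressor, had the widest tissue difference of the set. It was at 168, 189, 87.5, 130 and 110 CPM in the WT fat libraries and at 0.963, 1.12, 0.887, 1.89 and 2.31 CPM in WT liver, where these rest on 9 to 27 counts per library. Its WT fat to liver ratio was 95.9 (95% interval 59.8 to 154, adjusted p = 3.6e-09), a log2 ratio above that of 98.3% of all genes. In KO mice the ratio was 145 (101 to 207, adjusted p = 6.5e-10), from 103 to 171 CPM in fat and 0.506 to 1.35 CPM in liver. Cdkn1a was next. Its WT fat libraries were at 15.8, 22.0, 30.4, 20.4 and 21.2 CPM and its WT liver libraries at 2.17, 5.39, 2.96, 5.19 and 3.17 CPM, a ratio of 5.84 (3.95 to 8.62, adjusted p = 2.4e-06). In KO mice the ratio was 16.2. Neither gene overlapped between the tissues in either genotype. The share of all genes without overlap between the tissues was not counted, so nothing particular to these members is read from it.

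Ccng1, Zmat3 and Sesn1 were also higher in fat in both genotypes. For Ccng1, WT fat was at 97.8 to 128 CPM and WT liver at 50.1 to 60.4 CPM, a ratio of 2.06 (1.78 to 2.38, adjusted p = 1.1e-06), and 2.15 in KO. The Zmat3 ratio was 2.00 in WT (1.68 to 2.37, adjusted p = 6.6e-06) and 2.31 in KO (adjusted p = 1.8e-06). Sesn1 had a ratio of 1.87 in WT (1.57 to 2.24, adjusted p = 2.1e-05) and 1.81 in KO (adjusted p = 0.00017). These 5 genes stayed higher in fat under every scaling tried, with larger ratios under upper quartiles and totals.

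Btg2 and Trp53inp1 were higher in liver. Btg2 was at 44.5, 43.4, 32.6, 40.0 and 49.2 CPM in WT fat and at 196, 167, 224, 229 and 185 CPM in WT liver, a fat to liver ratio of 0.211 (0.172 to 0.258, adjusted p = 2.2e-08), and 0.379 in KO (adjusted p = 9.1e-05). Trp53inp1 was at 29.5, 30.1, 21.2, 38.8 and 20.8 CPM in WT fat and at 166, 77.6, 96.2, 183 and 356 CPM in WT liver, a ratio of 0.161 (0.0897 to 0.288, adjusted p = 5.7e-05), and 0.197 in KO (adjusted p = 9.0e-05). The WT libraries of the 2 tissues did not overlap for either gene, for which the share of all genes was again not counted. Trp53inp1 was the member with the widest spread in liver, from 77.6 to 356 CPM in WT and from 94.8 to 390 CPM in KO. Both kept this direction and their call under every scaling.

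Mdm2, Gadd45a and Gadd45b had calls that rest on the scaling or on single libraries. The Mdm2 ratio was 0.790 in WT (0.682 to 0.914, adjusted p = 0.0069) and 0.844 in KO (adjusted p = 0.063). In KO it passed the threshold with RLE scaling (adjusted p = 0.040), DESeq2 (0.021), all 20 libraries in 1 fit (0.020), and without KO fat 3 or 4 or KO liver 2. Its log2 ratio of -0.34 in WT became -0.05 with upper quartiles and 0.59 with totals, and that of -0.24 in KO became 0.03 and 0.66, with an adjusted p under the threshold in the opposite direction for totals in both genotypes. Its direction between the tissues thus turned with the scaling. The Gadd45a ratio was 0.436 in WT (0.330 to 0.577, adjusted p = 9.1e-05) and 0.535 in KO (adjusted p = 0.014). With totals it lost the call in both (adjusted p = 0.22 and 0.98), and in KO with upper quartiles too (adjusted p = 0.067). Gadd45b had a log2 ratio of -0.69 in WT (adjusted p = 0.097) and 0.74 in KO (adjusted p = 0.044). The WT value passed the threshold without WT fat 3 (adjusted p = 0.012) or WT liver 1 (0.037) and turned to 0.26 with totals. The KO call was kept in 11 of 19 alternatives, and was lost with all 20 libraries in 1 fit (adjusted p = 0.073) and without KO fat 2, 3 or 4 or KO liver 1, 2, 4 or 5 (up to 0.12).

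**Figure D2:**
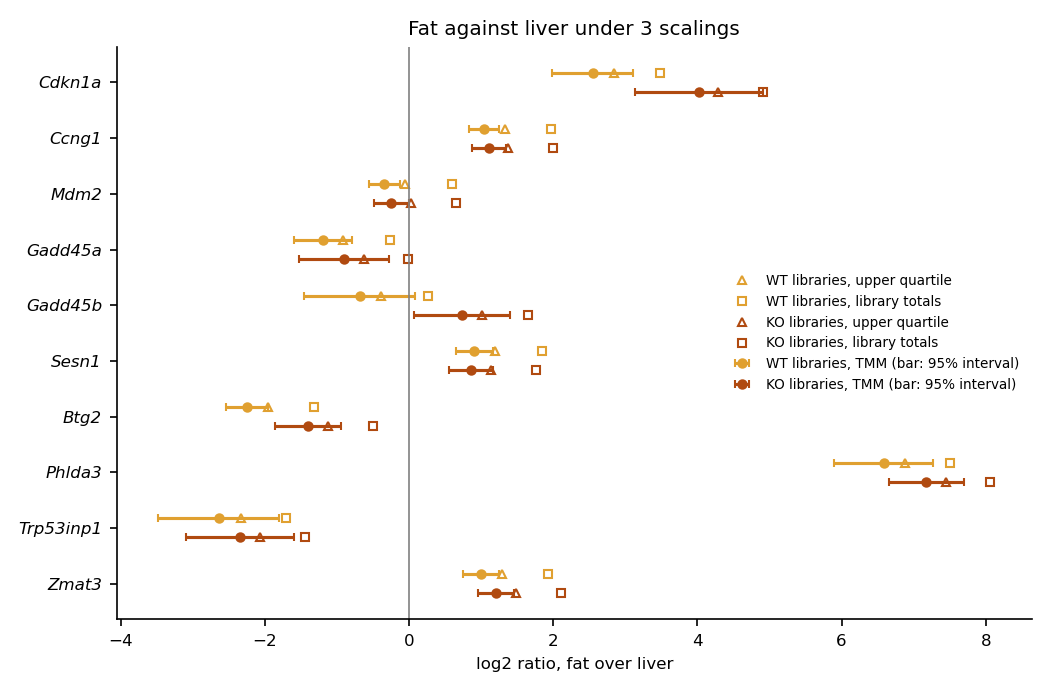
Log2 ratio of fat over liver for each member in WT (light) and KO (dark) libraries. Filled points with 95% intervals are TMM scaling, triangles upper quartile scaling and squares library totals alone. The 3 scalings move every gene the same way. By this Mdm2, Gadd45a and, in WT, Gadd45b come near or cross 0 while Phlda3, Cdkn1a, Btg2 and Trp53inp1 do not. In KO, Gadd45b moves away from 0, from 0.74 with TMM to 1.64 with library totals.

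In fat, the KO libraries lay higher than WT for 9 of the 10 members, with a median log2 difference of 0.23 against 0.00 over all genes. These values chose the set, so nothing is read from that count. Over all genes, edgeR called 0% of the 14707 tested, with 1048 at an unadjusted p under 0.05, while limma-voom called 0 genes and DESeq2 13. No call is read for the members. The groups did not separate fully for any member, while 1.26% of all genes had KO and WT fat libraries without overlap (0.639% with KO above and 0.619% with KO below). The members nearest to separation were Cdkn1a, Ccng1 and Trp53inp1, for which 4 of 5 KO libraries lay above the highest WT library.

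Cdkn1a was at 50.7, 51.1, 26.4, 33.8 and 45.7 CPM in the KO fat libraries, against the WT values of 15.8 to 30.4 CPM given above. The KO libraries 1, 2 and 5 formed the high end, and KO fat 3 lay below WT fat 3, the highest WT library. The KO to WT ratio was 1.89, a log2 difference of 0.92 with an SE of 0.21. KO fat 3 and WT fat 3 were also the libraries with the most macrophage marker counts of their groups, at 1582 and 2337 CPM summed over 9 of 9 markers, against 486 to 1465 in the other KO and 622 to 1097 in the other WT fat libraries. Leaving out both, a choice made after seeing the data, gave a log2 difference of 1.18. For Cdkn1a, KO fat 3 was the lowest KO library and WT fat 3 the highest WT library. Their removal therefore had to raise the difference, and nothing is read from that rise. The range over all 22 alternatives was 0.82 to 1.18, with its upper end from this choice. The part of macrophages in the fat values was not tested.

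Ccng1 was at 157, 148, 122, 135 and 152 CPM in KO fat and at 118, 128, 99.3, 113 and 97.8 CPM in WT fat, a ratio of 1.28 (log2 difference 0.36, SE 0.11). KO fat 3 alone lay within the WT range. Trp53inp1 was at 45.2, 47.3, 42.8, 32.8 and 42.4 CPM in KO fat, a ratio of 1.49 to WT (0.58, SE 0.18). KO fat 4, the lowest KO library, lay below WT fat 4, the highest WT library.

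The other growth arrest genes overlapped more. Btg2 was at 42.8, 67.6, 44.3, 48.2 and 52.8 CPM in KO fat (log2 difference to WT 0.28, SE 0.14), where KO fat 2 and 5 lay above all WT libraries. Without KO fat 2, the library with the bladder-type epithelial markers, the difference was 0.16. Gadd45a was at 7.08, 8.47, 12.9, 9.98 and 10.5 CPM in KO fat and at 7.46, 6.39, 7.99, 6.65 and 9.48 CPM in WT fat (0.36, SE 0.17), where 3 KO libraries lay above all WT libraries. Gadd45b was at 3.08 to 7.30 CPM in KO fat and 2.96 to 8.90 CPM in WT fat (0.05, SE 0.32). The KO range of Gadd45b lay within the WT range, and its sign changed in 4 of 22 alternatives.

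Mdm2, the main feedback gene, was at 26.3, 32.4, 38.5, 37.6 and 33.6 CPM in KO fat and at 28.7, 27.4, 36.9, 26.6 and 28.3 CPM in WT fat, a log2 difference of 0.19 (SE 0.12). Of the KO libraries, 1 lay below all WT libraries and 2 above. Zmat3 had 0.18 (SE 0.10), Phlda3 0.05 (SE 0.21) and Sesn1 -0.04 (SE 0.09), and the signs of Phlda3 and Sesn1 changed in 5 and 3 of 22 alternatives. Sesn1 had means of 40.3 ± 4.83 CPM in KO fat and of 41.2 ± 2.35 CPM in the WT libraries (SD, n = 5 each).

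In liver the members were split, 5 higher and 5 lower in KO than in WT, with a median log2 difference of 0.01 against 0.00 over all genes. Over all genes, edgeR called 0.00752% of the 13298 tested, which is 1 gene, and as in fat no call is read for the members. No member separated fully, against 2.84% of all genes (1.77% with KO above and 1.07% with KO below). Gadd45b stood lowest: its KO liver libraries were at 2.48, 2.50, 5.36, 2.25 and 3.04 CPM and its WT liver libraries at 3.93, 6.14, 7.79, 13.6 and 8.73 CPM. All KO libraries but number 3 lay below the lowest WT library. The ratio was 0.392 (log2 difference -1.35, SE 0.32), with a range of -1.64 to -1.08 over 20 alternatives. Btg2 was at 180, 117, 107, 188 and 97.4 CPM in KO liver, a ratio of 0.684 to WT (-0.55, SE 0.18). Its KO libraries 2, 3 and 5 lay below all WT libraries, while 1 and 4 lay among them.

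Ccng1 was at 64.6, 59.0, 62.0, 78.6 and 74.7 CPM in KO liver and at 55.4, 50.1, 50.8, 60.4 and 55.1 CPM in WT liver, a ratio of 1.24 (log2 difference 0.31, SE 0.10). KO liver 2 alone lay within the WT range. The Ccng1 difference kept its sign in all 20 alternatives in liver, at 0.25 to 0.36, and in all 22 in fat, at 0.31 to 0.42. Mdm2 was at 35.5 to 44.8 CPM in KO liver and at 35.2 to 39.2 CPM in WT liver (0.11, SE 0.09), with 4 of 5 KO libraries above the highest WT library.

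Cdkn1a was at 5.45, 1.82, 1.32, 3.24 and 1.30 CPM in KO liver, on 18 to 77 counts, a ratio of 0.689 to WT (log2 difference -0.54, SE 0.40). KO liver 1 lay above all WT libraries and 3 KO libraries lay below them. The WT liver libraries with most Cdkn1a, 2 and 4, were those with most skeletal muscle markers, at 115 and 177 CPM summed over 7 of 7 markers against at most 16.6 in the other WT libraries, and KO liver 1 was the KO library with most, at 19.4 CPM. Without WT liver 2 and 4 the difference was -0.09, and without KO liver 1 it was -0.9996. The part of muscle RNA in these counts was not tested. Gadd45a (0.08, SE 0.29), Sesn1 (0.03, SE 0.15), Zmat3 (-0.01, SE 0.13) and Trp53inp1 (0.31, SE 0.51) had differences smaller than their SE, and Phlda3 (-0.52, SE 0.35) rested on 7 to 27 counts per library. The Trp53inp1 value ran from -0.007 without KO liver 4 to 0.73 without WT liver 5.

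**Figure D3:**
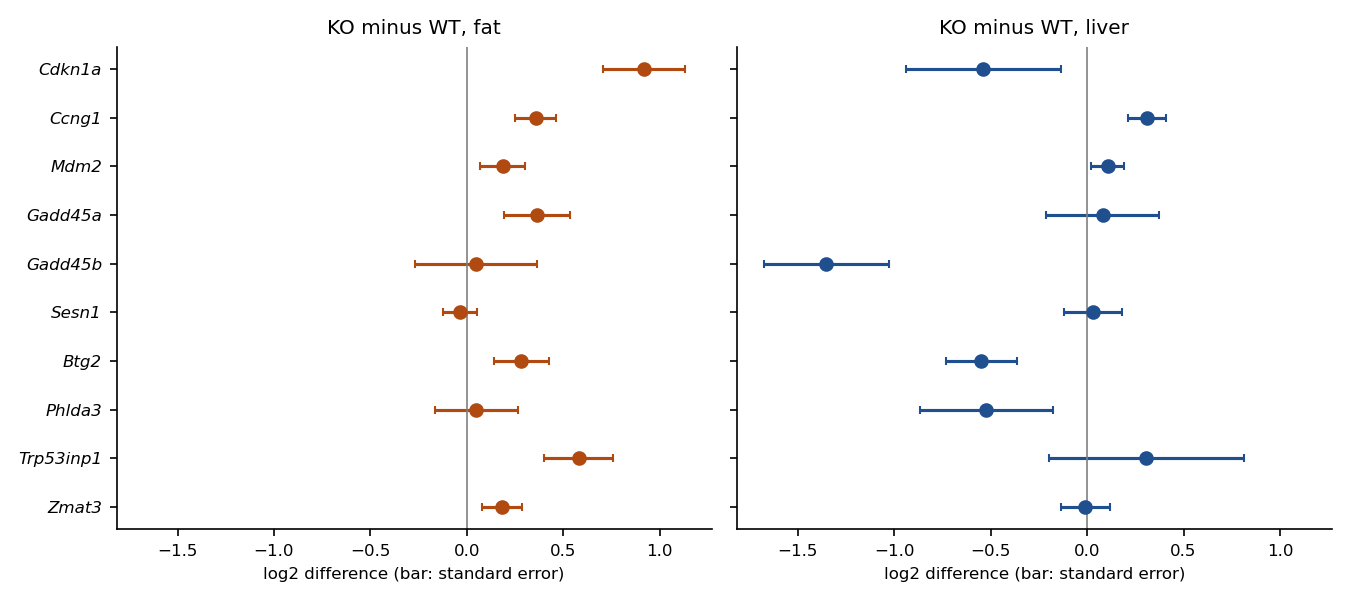
Log2 difference of KO minus WT for each member in fat (left) and liver (right), with the standard error of edgeR's fit as the bar. Ccng1 lies to the right of 0 in both tissues, Cdkn1a to the right in fat and to the left in liver, and Gadd45b and Btg2 to the left in liver.

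The KO effect in fat minus that in liver was positive for 9 of 10 members. It was 1.45 (SE 0.48, log2) for Cdkn1a, 1.40 (SE 0.49) for Gadd45b and 0.82 (SE 0.25) for Btg2, and lay between -0.07 and 0.57 for the other 7. Without KO liver 1 the value for Cdkn1a was 1.92. No gene of 15652 was called for this difference by edgeR (0%, with 839 at an unadjusted p under 0.05), while DESeq2 called 2. These contrasts share their libraries with those that chose the set.

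Whether members vary together from library to library was tested within each tissue, after the mean of each genotype had been taken out, in 10 libraries and 45 pairs per tissue. None of the 90 pairs passed Benjamini-Hochberg adjustment of the exact permutation p (two-sided, shuffled within genotype), by Pearson's r or Spearman's rho. Before adjustment 12 pairs in fat, 4 positive and 8 negative, and 2 in liver had a p under 0.05. Mdm2 and Gadd45b in fat came closest, with r = 0.92 and rho = 0.88 (exact permutation p = 0.0015, adjusted 0.13; rho p = 0.0034, adjusted 0.19), and r = 0.85 without the 2 libraries farthest from the median of Mdm2. Both were highest in WT fat 3 among WT libraries, and r was 0.87 without it. Ccng1 and Phlda3 in fat had r = 0.86 and rho = 0.77 (exact permutation p = 0.0064 and 0.018, adjusted 0.19 and 0.23), and 0.80 without the 2 farthest. For Cdkn1a and Zmat3 in fat, r was 0.81 and rho 0.84 (exact permutation p = 0.0053 and 0.0042, adjusted 0.19 and 0.19), and 0.71 without the 2 farthest. Ccng1 ran against Gadd45a in fat, with r = -0.79 and rho = -0.77 (exact permutation p = 0.010 and 0.020, adjusted 0.22 and 0.23), and -0.57 without the 2 farthest. In liver the highest r was that of Ccng1 and Trp53inp1, 0.77, with rho = 0.79 (exact permutation p = 0.015 and 0.0099, adjusted 0.22 and 0.23), and 0.67 without the 2 farthest. The largest r by size in liver was negative, that of Gadd45a and Zmat3, at -0.81 with rho = -0.70 (exact permutation p = 0.018 and 0.056, adjusted 0.23 and 0.36), and -0.55 without the 2 farthest. Cdkn1a and Ccng1, the genes that led to the choice of the set, had r = 0.27 in fat, which was -0.11 without KO fat 3, and 0.07 in liver.

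**Figure D4:**
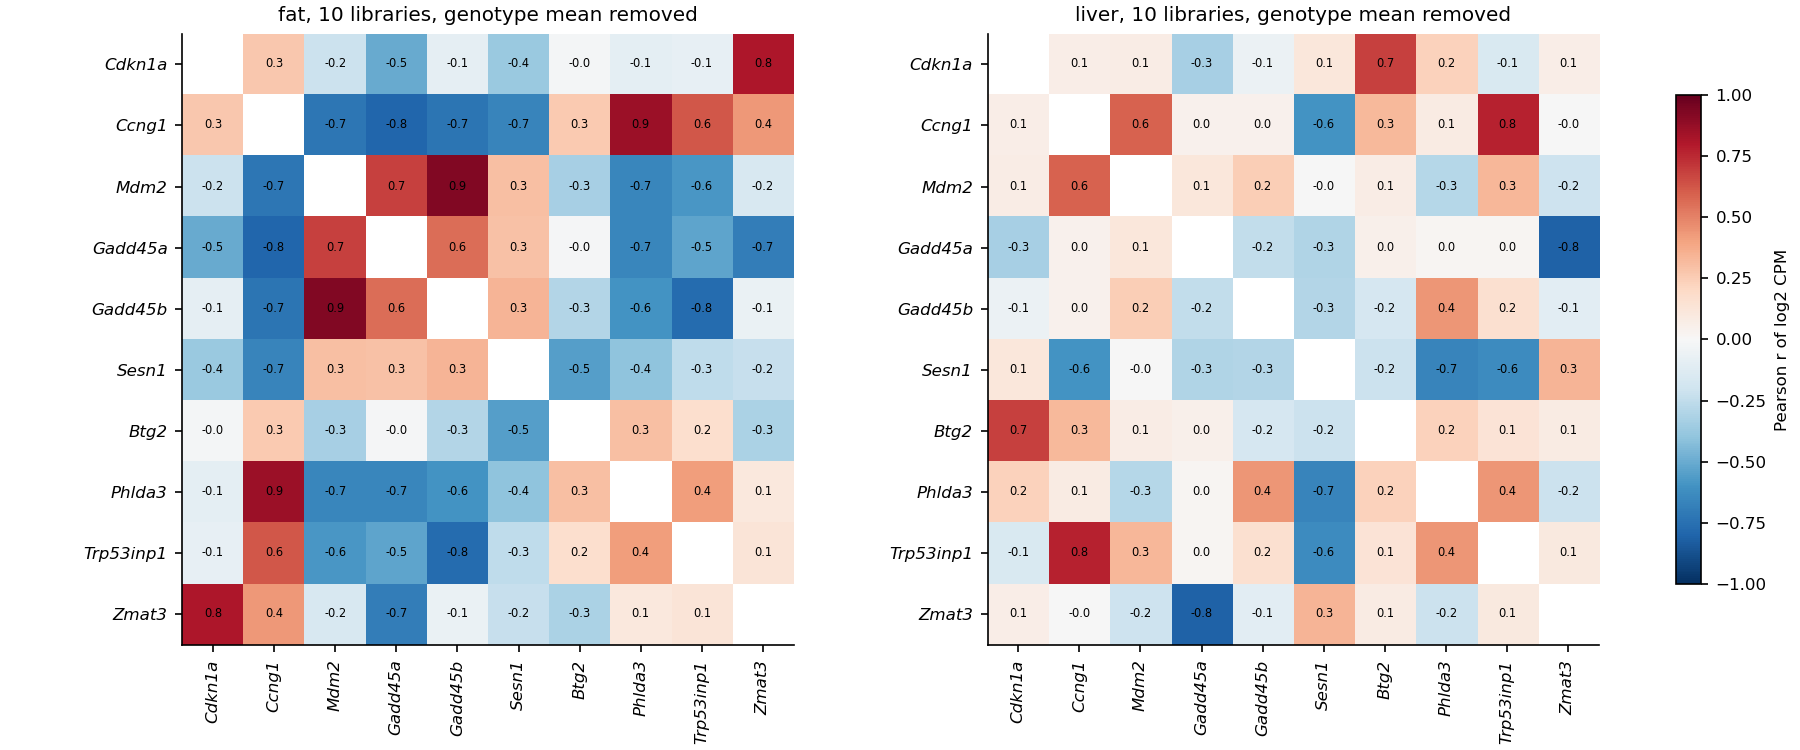
Pearson's r of log2 CPM for each pair of members over the 10 fat libraries (left) and the 10 liver libraries (right), after removal of each genotype's mean. In fat Ccng1 and Phlda3 (0.86) are red together and run against Mdm2, Gadd45a and Gadd45b, and in liver most cells are pale.

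Among the genes most like Cdkn1a over the 20 libraries, by Pearson's r of log2 CPM centred within each tissue out of 11925 genes, were Mast4 (0.79), Castor2 (0.78), Med24 (0.77) and Atf6b (0.77). Castor2 encodes part of the amino acid sensing machinery of mTORC1, and Atf6b a transcription factor of the unfolded protein response. Those most like Ccng1 were Usp32 (0.87), Stox2 (0.87), Mcts1 (0.86), Sdhaf3 (0.85) and Fam45a (0.85). These are the top values of a long ranking, include the genotype difference and carry no test. No other member was among them.

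The wider pathway was read through 5 lists of other p53 genes, 92 symbols in all, drawn from textbook knowledge. In fat 57 of the 86 tested were higher in KO and 29 lower, with a median log2 difference of 0.06, and in liver 38 of 76 were higher and 38 lower, with a median of 0.00. Of all genes tested, 50.1% were higher in KO fat and 50.0% in KO liver. The lean of the lists was not tested. edgeR called none in either tissue; at an unadjusted p under 0.05 there were 4 higher and 2 lower in fat, and 6 higher and 6 lower in liver, where 7.13% and 13.1% of all genes had such a p. Trp53, which encodes p53, was at 20.3 to 27.5 CPM in KO fat and at 18.9 to 31.9 CPM in WT fat (-0.06, SE 0.15), and differed by -0.12 (SE 0.11) in liver. Among its regulators, the damage kinase gene Atm had the smallest p in fat (0.29, SE 0.11, adjusted p = 0.69) and the kinase gene Hipk2 in liver (0.35, SE 0.11, adjusted p = 0.24). Mdm4, the partner of Mdm2, differed by 0.02 in fat and by 0.21 (SE 0.10, adjusted p = 0.37) in liver. Of the 18 cell death targets 14 were higher in KO fat, led by Trp53i11 (0.60, SE 0.25, adjusted p = 0.69), and in liver 7 of 17 were, with Bax, the pore-forming effector of apoptosis, at -0.44 (SE 0.12, adjusted p = 0.23) and the receptor gene Eda2r at 1.03 (SE 0.35, adjusted p = 0.26).

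Perp and Sfn, p53 targets of stratified epithelia, showed the largest values in fat and rested on 1 library. Perp was at 82.4 CPM in KO fat 2 and at 0.562 to 5.02 CPM in the other fat libraries, and Sfn at 66.6 CPM against 1.49 to 5.17 CPM. KO fat 2 is the library with the bladder-type epithelial markers. Their log2 differences of 2.98 and 2.38 turned to -0.58 and -0.68 without it.

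Cell cycle genes, many of which p21 is known to silence, were split in fat: 9 of 29 were higher and 20 lower in KO, with a median of -0.09 and none at an unadjusted p under 0.05. In liver 26 of 27 were lower in KO, with a median of -0.91 and 20 at an unadjusted p under 0.05 (6.56% of all genes were lower with such a p), and none called. Erythroid and macrophage marker sums had a lower, overlapping range in KO liver. Erythroid markers summed to 181 to 476 CPM in KO and 307 to 935 CPM in WT over 6 of 6 markers. Macrophage markers summed to 404 to 508 CPM in KO and 449 to 815 CPM in WT over 9 of 9. Lymphocyte marker sums overlapped, at 6.59 to 13.0 CPM in KO liver (median 8.46) and 4.77 to 11.0 CPM in WT liver (median 10.3). The mast cell range of KO liver, 8.65 to 10.7 CPM, lay within that of WT liver, 7.23 to 11.9 CPM. The part of any of these cells in the cell cycle values was not tested. Top2a, a topoisomerase of dividing cells, was at 2.03 to 2.97 CPM in KO liver and 3.02 to 9.76 CPM in WT liver (-1.41, SE 0.26, adjusted p = 0.12), and Prc1, a midzone protein, at 0.360 to 1.52 and 1.88 to 2.96 CPM (-1.69, SE 0.32, adjusted p = 0.13). Top2a passed the threshold in 4 of 20 alternatives, among them leaving out WT liver 4 (adjusted p = 0.016), and Prc1 in 3, among them leaving out KO liver 3 (0.043). Among paralogs of the members, none of 16 was called in either tissue, and Sesn3, a sestrin like Sesn1, had the smallest p in both, at 0.31 (SE 0.11, adjusted p = 0.69) in fat and 0.42 (SE 0.13, adjusted p = 0.24) in liver.

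**Figure D5:**
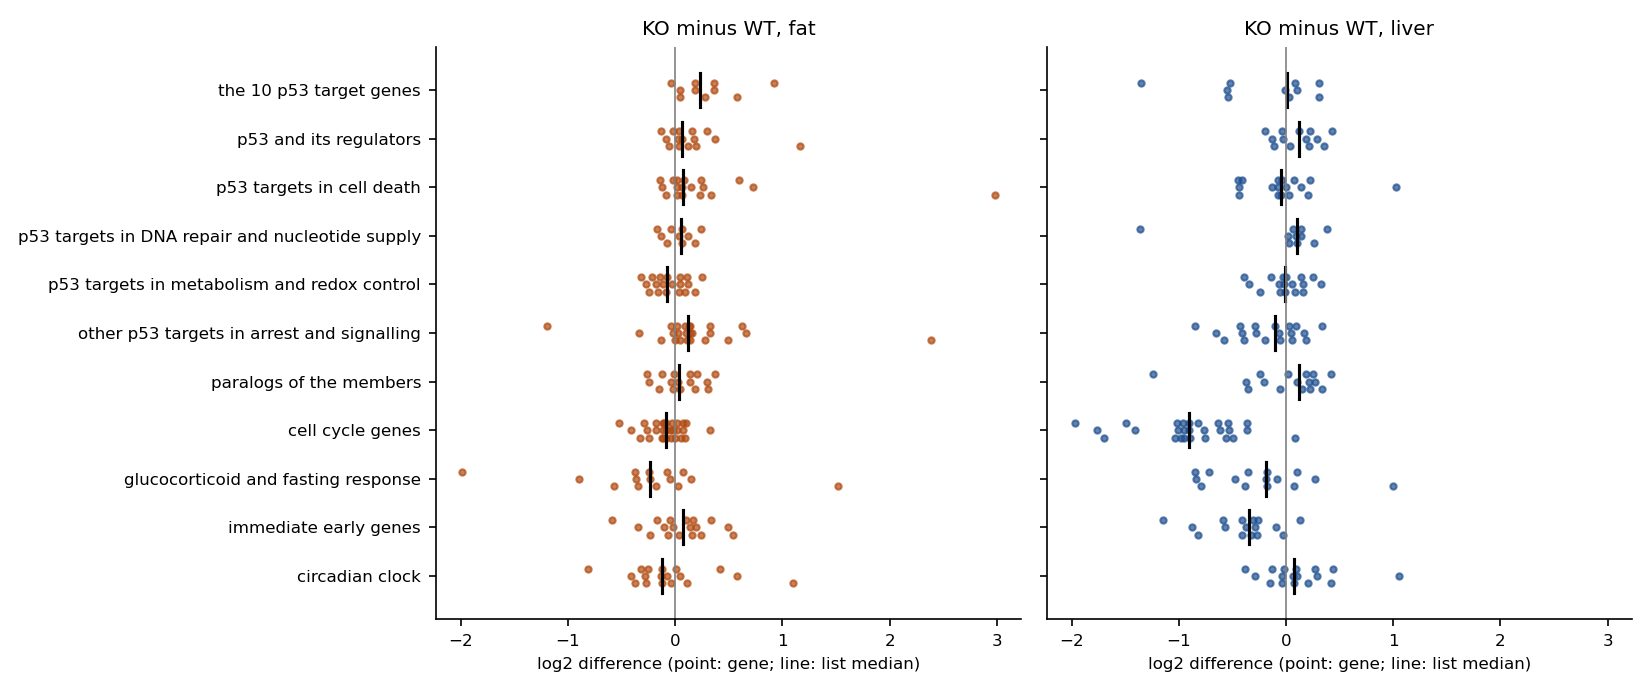
Log2 difference of KO minus WT in fat (left) and liver (right) for each tested gene of the set and of the other lists, with the list median as a line. The medians lie between -0.24 and 0.23 but for those of the cell cycle genes (-0.91) and the immediate early genes (-0.35) in liver.

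Between tissues, 63 of 85 genes of the same 5 lists differed in WT mice, 34 higher and 29 lower in fat, where 74.3% of all genes did. Of 19 targets in metabolism and redox control, 11 were lower and 5 higher in fat, among them the thiamine transporter gene Slc19a2 (log2 ratio -5.04, adjusted p = 1.8e-10), at 4.14 to 7.12 CPM in WT fat and 177 to 221 CPM in WT liver. Of 24 other targets in arrest and signalling, 13 were higher and 6 lower in fat, among them Kank3 (2.87, adjusted p = 2.5e-09). Of 16 paralogs of the members, 5 were higher and 4 lower in fat. Phlda1 was lower in fat (-3.52, adjusted p = 1.2e-07) where Phlda3 was higher, while Cdkn1c was higher (2.64, adjusted p = 5.4e-07) as Cdkn1a was. Trp53 itself did not pass the test between the tissues in either genotype (log2 0.13, adjusted p = 0.45 in WT; 0.20, adjusted p = 0.13 in KO).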

How the data were processed

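Gene expression was measured by RNA sequencing in 20 libraries. The deposited table holds expected counts per gene, made by the authors with Trim Galore 0.2.8, STAR 2.4.0d and RSEM 1.2.12 on GRCm38, per the submitters' processing notes. The gene annotation release and the strand setting were not stated in what was read.

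Expected counts, of which 3.95% to 5.8% per library were not whole, were rounded and tested with edgeR 4.0.16 (robust quasi-likelihood F-test, TMM scaling, R 4.3.3) on genes that passed filterByExpr (minimum count 10, minimum total 15), separately for each comparison, with Benjamini-Hochberg adjustment over all genes tested and a threshold of 0.05. The method was tested on simulated counts. Libraries were grouped by genotype and tissue as labelled, and fat and liver were not paired. Levels are CPM on 1 TMM scale over 20 libraries, with marker sums on plain CPM. Correlations used log2 CPM (prior count 2) and an exact permutation over 14400 assignments. The alternatives were RLE and upper quartile scaling, DESeq2 1.42.0, limma-voom (limma 3.58.1), no filter, 1 CPM in 5 libraries, a replicate block, all 20 libraries in 1 fit, leaving out each library, and leaving out libraries with markers of other tissues. Library totals alone, and leaving out KO fat 3 and WT fat 3, were chosen after seeing the data. The members and lists were chosen with earlier results of these data known. Genes named from a list were those with the smallest p in a comparison, up to 4 per list; Trp53, Mdm4 in fat, Prkce and the tissue levels of other named genes were added after values were seen. Promoters came from RefSeq (GRCm38.p6), where Trp53inp1 and Zmat3 had no entry. For the members, fitted values of KO against WT are given as a description, with no p. Some genes that the naming rule would give are not reported here.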

Additional observations from a re-analysis of the deposited data

Results flagged for a closer look

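Each of the 40 sets of 5 libraries (10 members in 4 groups) was searched for a library far from the rest of its group, by a gap over the range above Dixon's critical value of 0.71, which chance gives in about 1 of 20 sets. There were 2. Mdm2 in WT fat 3 was at 36.88 CPM, with the next WT library at 28.67 CPM and a gap of 0.799 of the range. Gadd45b in KO liver 3 was at 5.36 CPM, with the next KO library at 3.038 CPM and a gap of 0.747 of the range.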

How the results depend on the processing

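Between tissues, 172 settings tried for members in KO and 184 in WT kept direction and side of the threshold. In both together, 12 lost and 8 gained a call and 4 reversed. Between KO and WT no threshold was used, and a value counted as kept if it moved by less than the SD within groups. For the difference of the KO effects this was the SD in fat alone. By that rule 220 were kept in fat, 199 in liver and 277 for the difference of the KO effects, where 3 moved. Those 3 each came from leaving out a liver library, whose spread the rule did not use. The rule did not ask for the same sign, which changed for Gadd45a in liver in 5 of 20 alternatives. The cause was not tested. In fat the count of genes called between KO and WT was 0 in every alternative but DESeq2 (13). In liver it was 1, and 137 with DESeq2, 15 without a filter, 3 without WT liver 2 and 4, 2 with all 20 libraries in 1 fit, and 0 to 3 when single libraries were left out. For the difference between tissues DESeq2 called 2. With library totals alone the tissue log2 ratio of Mdm2 was 0.59 in WT and 0.66 in KO (0.029 with upper quartiles), that of Gadd45b 0.26 in WT, and that of Atm 0.063. The interaction of Cdkn1a was 1.92 without KO liver 1, and that of Trp53inp1 ran from -0.15 to 0.59. Without KO fat 2 and WT fat 5, Perp was at -0.018 and Sfn at -0.33 between KO and WT in fat, and over single libraries left out they ran from -0.58 to 3.53 and from -0.68 to 2.73. Ccnb2 was at 0.14 without WT fat 3 and 4, and ran from -0.86 to 0.20. No pair of members passed adjustment under a prior count of 0.5 or RLE scaling.

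Correlations of same-numbered libraries between groups ran from -0.23 to 0.50, and the main tests did not pair libraries by number. Between KO and WT fat, numbers 1, 2 and 3 correlated at 0.34, 0.15 and 0.50 and each matched its own number best, while numbers 4 and 5 did not. With the replicate block the liver count was 3, the fat count 0 and the tissue counts 10537 in WT and 10599 in KO.

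Depth limited Phlda3 and Cdkn1a in liver, where libraries held as few as 7 and 18 counts. Gadd45b in liver also rested on few counts, 25 to 81 per library in KO and 49 to 144 in WT.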

Other observations

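Several lists outside the p53 pathway were also read between KO and WT, where none of their genes was called by edgeR. In liver 15 of 16 immediate early genes had lower KO values (median log2 difference -0.35), 5 of them at an unadjusted p under 0.05, where 6.56% of all genes were lower with such a p. Fos was at 53.4 to 107 CPM in KO liver and at 145 to 237 CPM in WT liver, without overlap (-1.15, SE 0.18, adjusted p = 0.083; under 0.05 with DESeq2 or without KO liver 5). Among glucocorticoid and fasting genes, Cebpb was at 81.8 to 151 CPM in KO liver and at 36.3 to 78.8 CPM in WT liver (1.00, SE 0.21, adjusted p = 0.20, 0.0016 with DESeq2), while 11 of the 15 were lower. In fat, the clock gene Clock was at 50.2 to 70.5 CPM in KO and at 33.7 to 44.2 CPM in WT (0.58, SE 0.11, adjusted p = 0.69, 0.0068 with DESeq2), with 12 of 18 clock genes lower.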
